A study of Homo sapiens with 6 samples.

Results

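The aldose reductase, polyol and fructose genes are 8 genes that lead from glucose through sorbitol to fructose and into glycolysis, together with the closest relatives of aldose reductase. They were followed in Huh7, a human cell line derived from a hepatocellular carcinoma, by RNA-seq of 3 control libraries and 3 libraries of cells that overexpressed HK1, the gene of hexokinase 1. The method of HK1 overexpression and the treatment of control cells are not given in the sources used here. All 6 libraries came from this single cell line, and the labels do not say that replicates were separate cultures, so p-values cover the spread among these libraries alone, and that spread may be technical. The members AKR1B1, AKR1B10, AKR1B15, AKR1A1, SORD, KHK, TKFC and SLC2A5 were picked by gene name, 8 of 79172 gene names in the table, and were chosen by pathway with the changes of AKR1B1 and KHK in this same contrast already known. Their differences between control and HK1-overexpressing cells are therefore given as a description, and no test of them is used as support.

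In the polyol pathway, aldose reductase reduces glucose to sorbitol with NADPH, and sorbitol dehydrogenase oxidises sorbitol to fructose with NAD+. Fructose made this way, or taken up from outside, is phosphorylated by ketohexokinase, cleaved by an aldolase, and its glyceraldehyde is phosphorylated by triokinase before it joins glycolysis. Hexokinase and aldose reductase draw on the same glucose, and in liver the fructose branch bypasses the regulated phosphofructokinase step.

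Of the 8 genes, 7 passed the filter on low counts and 1, SLC2A5, did not. Under edgeR's quasi-likelihood test with Benjamini-Hochberg adjustment at 0.05 over all 16734 tested genes, AKR1B1 was called higher in HK1-overexpressing cells, and KHK, TKFC and AKR1B10 were called lower. AKR1B15, AKR1A1 and SORD were not called. Across all tested genes 8.02% were called, 3.87% as higher and 4.15% as lower. Nothing is read from the members' count beside these shares, since the contrast was known when they were chosen. The median log2 change of the 7 tested genes was -0.04, and that of all tested genes was 0.0063.

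The libraries held 16771835 to 20823072 counts. HK1 itself had 13, 15 and 13 counts in control replicates 1 to 3 and 9723, 10602 and 11101 in HK1-overexpressing replicates 1 to 3, so the libraries matched their labels. No pair of replicates agreed within sampling noise: the chi-square per degree of freedom ran from 4.94 to 11 for pairs of control libraries and from 1.58 to 2.28 for pairs of HK1-overexpressing libraries. Hepatocyte and hepatoma markers were all detected, and their summed level was 11239 to 12293 CPM (counts per gene scaled to a common library size) in control libraries and 8806 to 9066 CPM in HK1-overexpressing libraries. Of these 8 markers, 5 were called lower, among them ALB and AFP. APOB, SERPINA1 and HNF4A were not called, with HNF4A at 155.0 and 156.2 CPM. Every library came from the same cell line, and in bulk samples fewer cells that express a marker and less of its RNA per cell cannot be told apart. Leukocyte markers summed to 61.2 to 71.1 CPM in control and 43.4 to 48.4 CPM in HK1-overexpressing libraries, nearly all of it LYZ, with PTPRC, CD3E and CD68 at means below 0.3 CPM in both groups. Fibroblast markers summed to 14.4 to 15.8 against 18.8 to 21.6 CPM, most of it COL1A2. COL1A2 went from 11.9 to 17.8 CPM and was called higher. COL3A1, at 2.53 and 1.81 CPM, was lower in mean and not called, and COL1A1, DCN and PDGFRB did not pass the filter. Endothelial markers summed to 4.02 to 6.25 against 4.53 to 5.40 CPM, with CDH5 and KDR at 0 in every library. The part of these marker shifts in the results on single genes was not tested.

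AKR1B1 encodes aldose reductase, the enzyme of the glucose to sorbitol step. It lies on the reverse strand at chr7:134442356-134459284 (hg38). Its 3 control libraries held 5731, 5504 and 5188 counts, or 288.1, 322.8 and 314.8 CPM. The 3 HK1-overexpressing libraries held 11229, 12097 and 12278 counts, or 565.7, 581.7 and 581.5 CPM. Every HK1-overexpressing library was above every control library, and the distance between the groups was many times the spread within either. The mean went from 308.6 ± 18.2 CPM to 576.3 ± 9.22 CPM (SD, n = 3 each), a ratio of 1.87 and a log2 change of 0.90 (SE 0.0511; 95% interval 0.79 to 1.01). Ranked by log2 change among the 16734 tested genes, AKR1B1 was number 177 from the top. The groups did not overlap in either direction for 27.8% of all tested genes.

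**Figure D1:**
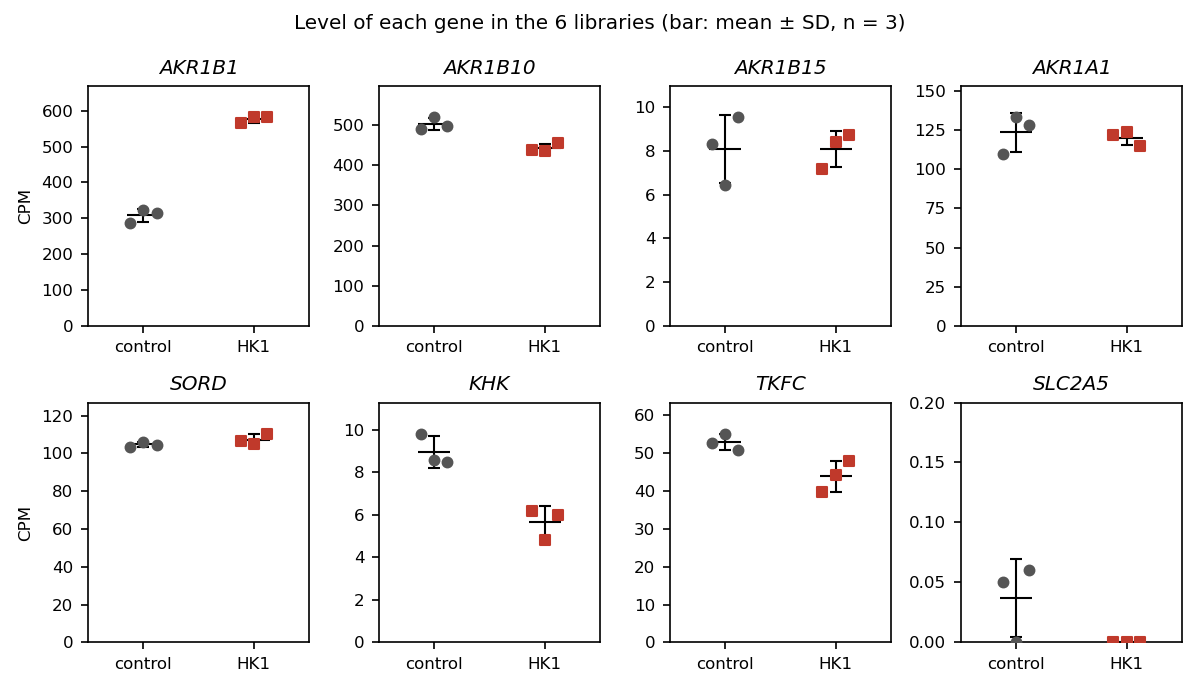
Level of each of the 8 genes in CPM (scaled counts, vertical axes starting at 0) in control libraries (grey circles) and HK1-overexpressing libraries (red squares), with mean and SD of 3 libraries. AKR1B1 stands between 565.7 and 581.7 CPM in HK1-overexpressing libraries and between 288.1 and 322.8 CPM in controls, while KHK is lower in all 3 HK1-overexpressing libraries.

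The RefSeq promoter table (GRCh38.p14, 250 bases before to 50 after a start site) held 5 entries for 4 of the 8 genes: AKR1B1 with a pair of starts, AKR1A1, TKFC and SLC2A5. The windows of AKR1B1, which was higher, TKFC, which was lower, and AKR1A1, which was not called, are shown because their core elements can be compared by eye. Capitals mark GC boxes (GGGCGG or its reverse complement), CCAAT boxes and E-boxes (CACGTG), searched on both strands.
AKR1B1, reverse strand, chr7:134459051-134459350: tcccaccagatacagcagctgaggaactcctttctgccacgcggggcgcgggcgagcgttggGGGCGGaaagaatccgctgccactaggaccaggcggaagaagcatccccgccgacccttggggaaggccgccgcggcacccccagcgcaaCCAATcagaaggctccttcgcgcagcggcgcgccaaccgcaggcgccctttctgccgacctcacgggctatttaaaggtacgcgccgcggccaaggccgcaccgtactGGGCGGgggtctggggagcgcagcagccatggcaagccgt
TKFC, forward strand, chr11:61332978-61333277: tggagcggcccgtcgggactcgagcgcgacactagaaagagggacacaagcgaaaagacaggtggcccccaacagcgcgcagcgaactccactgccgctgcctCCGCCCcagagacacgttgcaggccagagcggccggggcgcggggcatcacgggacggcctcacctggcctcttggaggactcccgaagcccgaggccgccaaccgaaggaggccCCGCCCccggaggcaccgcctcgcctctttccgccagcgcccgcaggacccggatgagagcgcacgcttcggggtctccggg
AKR1A1, forward strand, chr1:45550576-45550875: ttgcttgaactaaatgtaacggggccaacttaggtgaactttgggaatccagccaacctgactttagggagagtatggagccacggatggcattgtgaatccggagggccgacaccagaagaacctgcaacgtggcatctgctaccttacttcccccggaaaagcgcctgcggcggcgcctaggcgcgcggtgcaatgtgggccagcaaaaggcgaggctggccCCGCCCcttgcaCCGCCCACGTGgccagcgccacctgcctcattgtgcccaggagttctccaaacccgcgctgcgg
The AKR1B1 window shown held a CCAAT box beginning 98 bases before the start site, a GC box 188 bases before it and another at position 11 after it. The window of the other AKR1B1 start, not shown, overlaps the window shown. Its GC box, 49 bases before that start, is the same site as the GC box at 188 bases. Its CCAAT box, at position 42 after that start, is the same site as the CCAAT box at 98 bases. TKFC had GC boxes at 147 and 32 bases before its start. AKR1A1 had GC boxes at 26 and 14 bases before its start, the latter sharing bases with an E-box at 9 bases. Base composition was rich in G and C in the windows shown, at 68.7% for AKR1B1, 71.7% for TKFC and 61.3% for AKR1A1. It was 54.3% for the other AKR1B1 start and 47.7% for SLC2A5. Of 35116 promoter windows of the same length, 45% held a GC box, 34.6% a CCAAT box and 7.26% an E-box. Letters of the osmotic response element core (TGGAAA, in 20.7% of all windows), the antioxidant response element core (TGACNNNGC, 13.3%) and the AP-1 site (TGANTCA, 7.71%) were found on neither strand in any of the 5 windows. These matches and absences are descriptions of letters in short windows and say nothing about binding. Bases farther from the start sites were not searched.

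AKR1B10 encodes a retinal and aldehyde reductase known for its high expression in many liver cancers, and lies beside AKR1B1 on the forward strand at chr7:134527567-134541412. It had 490.2, 519.7 and 498.5 CPM in control libraries and 439.1, 436.7 and 455.0 CPM in HK1-overexpressing libraries. All 3 HK1-overexpressing values were below all 3 control values, though by a small step. The mean went from 502.8 ± 15.3 to 443.6 ± 9.95 CPM (SD, n = 3 each), which is a log2 difference of -0.18 (SE 0.0458; 95% interval -0.278 to -0.082). This call was lost in 6 of 15 alternative settings, including the removal of control replicate 3 or of any HK1-overexpressing replicate. In those removals the log2 change was -0.199 to -0.167. The summed level of hepatocyte markers was lower in the same libraries, and its part in this difference was not tested.

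AKR1B15, the nearest relative of AKR1B10, lies next to it at chr7:134549110-134579875 on the forward strand. It had 8.30, 6.45 and 9.53 CPM in control libraries and 7.15, 8.42 and 8.71 CPM in HK1-overexpressing libraries. The groups overlapped, and the means were 8.09 ± 1.55 and 8.09 ± 0.829 CPM (SD, n = 3 each). The 95% interval of the log2 change ran from -0.286 to 0.292, so a change within that range in either direction is not excluded. The sign of the estimate turned when control replicate 2 or HK1-overexpressing replicate 2 or 3 was left out. Of these 3 neighbours AKR1B1 was called higher, AKR1B10 lower, and AKR1B15 was not called. The AKR1B15 interval holds the -0.18 of AKR1B10, so a difference between the changes of that pair is not shown.

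The 3 genes are similar enough for their reads to need a check. In the coding sequences of the GENCODE 29 principal transcripts, AKR1B10 and AKR1B15 were identical at 85.9% of aligned positions, AKR1B1 and AKR1B10 at 76.1%, AKR1B1 and AKR1B15 at 69.6%, and AKR1B1 and AKR1A1 at 59.5%. The longest run shared by AKR1B10 and AKR1B15 is shown with the same stretch of AKR1B1, because fragments within it fit AKR1B10 and AKR1B15 alike but not AKR1B1. Capitals mark the 32 of 116 bases at which AKR1B1 differs.
AKR1B10: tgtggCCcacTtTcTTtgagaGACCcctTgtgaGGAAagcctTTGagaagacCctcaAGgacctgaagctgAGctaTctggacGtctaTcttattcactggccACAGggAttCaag
AKR1B15: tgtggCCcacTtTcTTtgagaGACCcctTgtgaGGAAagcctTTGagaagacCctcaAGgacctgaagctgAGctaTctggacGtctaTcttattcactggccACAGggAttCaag
AKR1B1: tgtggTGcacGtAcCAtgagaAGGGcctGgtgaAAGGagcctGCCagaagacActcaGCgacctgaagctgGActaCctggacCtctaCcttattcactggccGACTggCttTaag
Positions 236 to 351 of the AKR1B10 and AKR1B1 coding sequences, and 320 to 435 of AKR1B15, are shown. Among windows of 50 bases in the principal transcripts, 4.78% of those in AKR1B1 occurred exactly in a transcript of another gene name, all of them AKR1B1 pseudogenes. This share was 17.7% for AKR1B10 and 11.6% for AKR1B15, and 0 for AKR1A1. The shared windows of AKR1B10 matched 86 other gene names, and those of AKR1B15 matched AKR1B10 and AKR1B10P1 alone. At 100 bases the share was 0 for AKR1B1, 2.01% for AKR1B10 and 1.12% for AKR1B15. The AKR1B10 windows then matched AKR1B10P1 and AKR1B15 alone. AKR1B10 had 64.0 ± 14.7 times the counts of AKR1B15 in control libraries and 55.2 ± 5.39 times in HK1-overexpressing libraries (SD, n = 3 each). Levels of AKR1B15 are uncertain beside so abundant a near copy, and the share of misassigned fragments was not tested.

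AKR1A1 encodes aldehyde reductase, which reduces glucuronate and many aldehydes and is the more distant relative of aldose reductase, at chr1:45550543-45570049 on the forward strand. Control libraries had 109.5, 133.1 and 127.9 CPM and HK1-overexpressing libraries 121.5, 123.4 and 114.9 CPM. The groups overlapped, with control replicate 1 the lowest and control replicate 2 the highest of the 6. Means were 123.5 ± 12.4 and 120.0 ± 4.48 CPM (SD, n = 3 each), with a log2 change of -0.04 (95% interval -0.187 to 0.106) whose sign turned without control replicate 2.

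SORD encodes sorbitol dehydrogenase, the step after aldose reductase, at chr15:45023147-45077185 on the forward strand. It had 103.6, 106.2 and 104.5 CPM in control libraries and 106.4, 104.8 and 110.4 CPM in HK1-overexpressing libraries. The ranges overlapped and were the tightest of the 7 tested genes in controls, with a coefficient of variation of 1.23%. The mean was 104.8 ± 1.29 CPM in control and 107.2 ± 2.89 CPM in HK1-overexpressing cells (SD, n = 3 each), with a log2 change of 0.03 (95% interval -0.0748 to 0.142). A rise of the size seen in AKR1B1 lies outside this interval. Of 50-base windows in the SORD principal transcript, 34.7% also occurred in another gene name, among them the pseudogene SORD2P, so its counts may miss fragments.

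Within each library, counts of AKR1B1 relative to SORD, the paired enzymes of the polyol pathway, went from 2.78, 3.04 and 3.01 in controls to 5.32, 5.55 and 5.27 in HK1-overexpressing libraries. The ratio did not overlap between groups, at 2.94 ± 0.143 against 5.38 ± 0.152 (SD, n = 3 each). Relative to AKR1A1, AKR1B1 went from 2.51 ± 0.110 to 4.81 ± 0.220. Relative to AKR1B10, it went from 0.614 ± 0.0228 to 1.30 ± 0.0288, so AKR1B1 had fewer counts than AKR1B10 in all 3 control libraries and more in all 3 HK1-overexpressing libraries. These ratios need no scaling between libraries, but they restate the changes by which AKR1B1 was known and are not independent of them.

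KHK encodes ketohexokinase, which phosphorylates fructose, at chr2:27086772-27100762 on the forward strand. It had 195, 146 and 140 counts in control libraries, or 9.80, 8.56 and 8.50 CPM. HK1-overexpressing libraries had 123, 100 and 126 counts, or 6.20, 4.81 and 5.97 CPM. All 3 HK1-overexpressing libraries were below all 3 controls. The mean went from 8.95 ± 0.737 to 5.66 ± 0.744 CPM (SD, n = 3 each), which is a log2 difference of -0.67 (SE 0.121; 95% interval -0.925 to -0.409). Of its exon bases, 719, or 23.8%, overlap CGREF1 on the other strand, which had 2 to 8 counts in a library. Fragments in the shared bases may be missing from both genes, and the part of this in the difference was not tested. Counts per gene do not separate the alternative isoforms of KHK. The summed level of hepatocyte markers was lower in the same libraries, and its part in this difference was not tested.

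TKFC encodes triokinase, which phosphorylates the glyceraldehyde released from fructose, at chr11:61333220-61353295 on the forward strand. Control libraries had 52.6, 55.1 and 51.0 CPM, and HK1-overexpressing libraries 39.7, 44.1 and 47.9 CPM. The groups did not overlap, but HK1-overexpressing replicate 3 came close to the lowest control. The mean went from 52.9 ± 2.10 to 43.9 ± 4.10 CPM (SD, n = 3 each), which is a log2 difference of -0.27 (SE 0.0724; 95% interval -0.423 to -0.113). The call was lost in 4 of 15 alternative settings. The log2 change was then -0.195 without HK1-overexpressing replicate 1, -0.229 with library totals only, -0.272 without HK1-overexpressing replicate 2 and -0.294 without control replicate 3. Of its exon bases 17.5% overlap other genes, mainly CYB561A3 and DDB1 on the other strand. DDB1 was far more abundant, at 852.9 ± 20.4 and 796.5 ± 16.0 CPM, and CYB561A3 was at 98.0 ± 0.622 and 95.4 ± 2.53 CPM (SD, n = 3 each), and neither was called. The counting did not use strand or assign a fragment to several genes, so fragments in the shared bases may be missing from each of them, and the part of this in the difference was not tested.

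SLC2A5 encodes GLUT5, the fructose transporter of the intestine, at chr1:9035106-9088478 on the reverse strand. It had 1, 0 and 1 counts in control libraries and 0 in each HK1-overexpressing library. All are under the limit of 3 counts that a count of 0 allows, 0.142 to 0.182 CPM per library, so no fold is given and expression was not detectable at this depth.

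**Figure D2:**
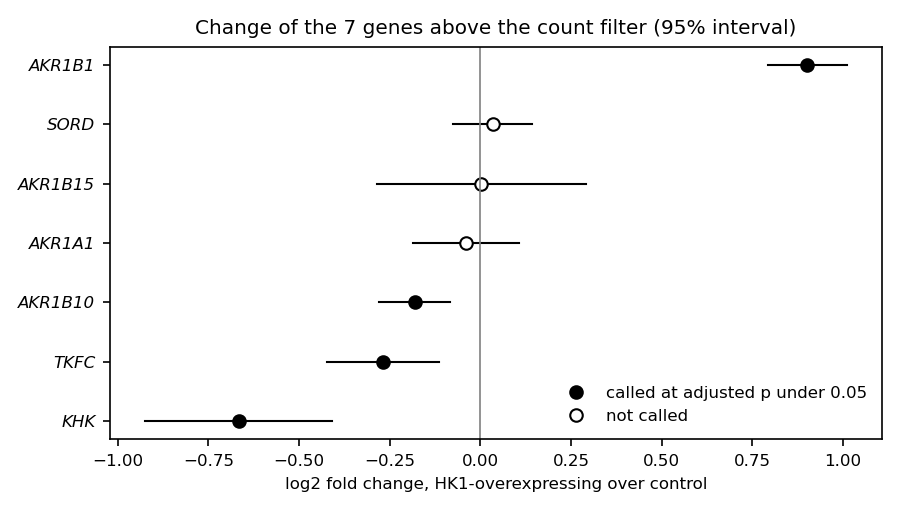
Log2 fold change of HK1-overexpressing over control cells (horizontal axis) for the 7 genes above the count filter, with 95% intervals; filled points passed the adjusted threshold. AKR1B1 stands alone on the right at 0.90, SORD, AKR1B15 and AKR1A1 have intervals across 0, and KHK is farthest left at -0.67.

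Levels can be compared between genes only per length. By RPKM, which is CPM divided by the exon length in kilobases given in the deposited table, the order in control cells was AKR1B10 at 283.6, AKR1B1 at 84.5, AKR1A1 at 39.6, SORD at 8.43, TKFC at 6.51, KHK at 2.96 and AKR1B15 at 2.41 RPKM. The library values of neighbours in this order did not overlap, except those of KHK and AKR1B15, with SDs of 0.244 and 0.462 RPKM. In HK1-overexpressing cells AKR1B10 was at 250.2 RPKM and AKR1B1 at 157.7 RPKM, and KHK, at 1.87, was below AKR1B15, at 2.42. The order of the leading pair depends on the length used. With the length of the GENCODE 29 principal transcript, an alternative chosen after seeing the data, AKR1B10 was at 316.2 and AKR1B1 at 219.0 RPKM in control cells, and at 279.0 and 409.0 RPKM in HK1-overexpressing cells. With that length AKR1B15, at 4.99 RPKM in control cells, also stood above KHK, at 3.74. In both orders AKR1B10, AKR1B1 and AKR1A1 led, and SORD, TKFC, KHK and AKR1B15 followed.

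Spread between replicates was small for most of these genes. The coefficient of variation in control and HK1-overexpressing libraries was 5.89% and 1.60% for AKR1B1, 8.23% and 13.1% for KHK, 3.96% and 9.34% for TKFC, and 19.1% and 10.2% for AKR1B15. The median SD of log2 CPM within a group was 0.086 in control and 0.054 in HK1-overexpressing libraries over the 7 genes, and 0.130 and 0.077 over all tested genes.

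AKR1B1 and KHK were called under all 15 alternative settings, with log2 changes of 0.86 to 0.94 and -0.73 to -0.56. AKR1B10 was called under 9 and TKFC under 11 of the 15. The other 3 tested genes were called under none of them.

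**Figure D3:**
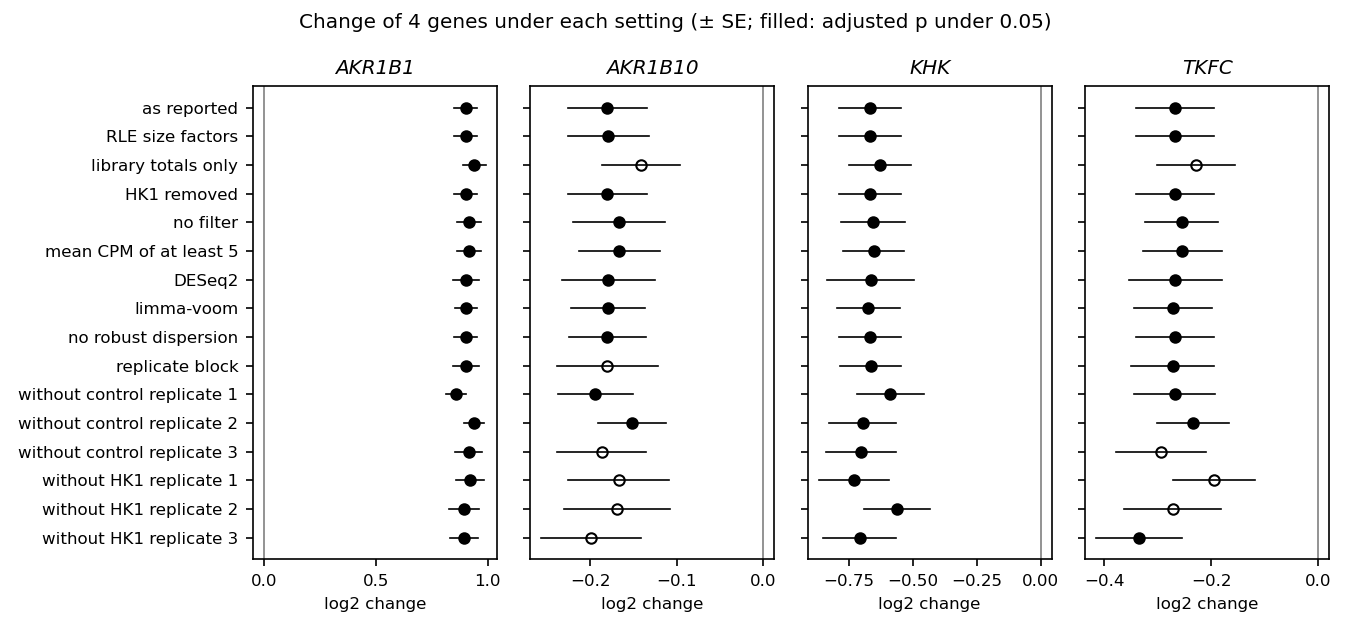
Log2 change of AKR1B1, AKR1B10, KHK and TKFC (horizontal axes, each with its own scale) as reported and under the 15 alternative settings (rows), with standard errors; filled points passed an adjusted p of 0.05 and open points did not. AKR1B1 and KHK stay filled in every row, and AKR1B10 has 6 and TKFC 4 open points.

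The surroundings of the AKR1B genes were measured next, since their position was not used to choose them. Within 500 kb of the span of AKR1B1, AKR1B10 and AKR1B15 on chromosome 7, 7 other genes were tested by edgeR and 0 were called, with 1 higher and 0 lower at an unadjusted p under 0.05, and 0 called by DESeq2 or limma-voom. The nearest before the cluster was LINC03060, a long noncoding RNA gene 9758 bases away, at 7.97 and 9.28 CPM in control and HK1-overexpressing cells (log2 change 0.22, SE 0.108; edgeR adjusted p = 0.260). SLC35B4, a nucleotide sugar transporter, went from 56.4 to 59.1 CPM (log2 change 0.07; edgeR adjusted p = 0.611). On the other side, BPGM, which makes 2,3-bisphosphoglycerate from a glycolytic intermediate, was at 28.5 and 27.8 CPM (log2 change -0.04; edgeR adjusted p = 0.835). CALD1, an actin-binding protein gene of high level, was at 700.6 and 692.6 CPM (log2 change -0.02; edgeR adjusted p = 0.898), and the sign of both BPGM and CALD1 turned under 3 settings each.

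**Figure D4:**
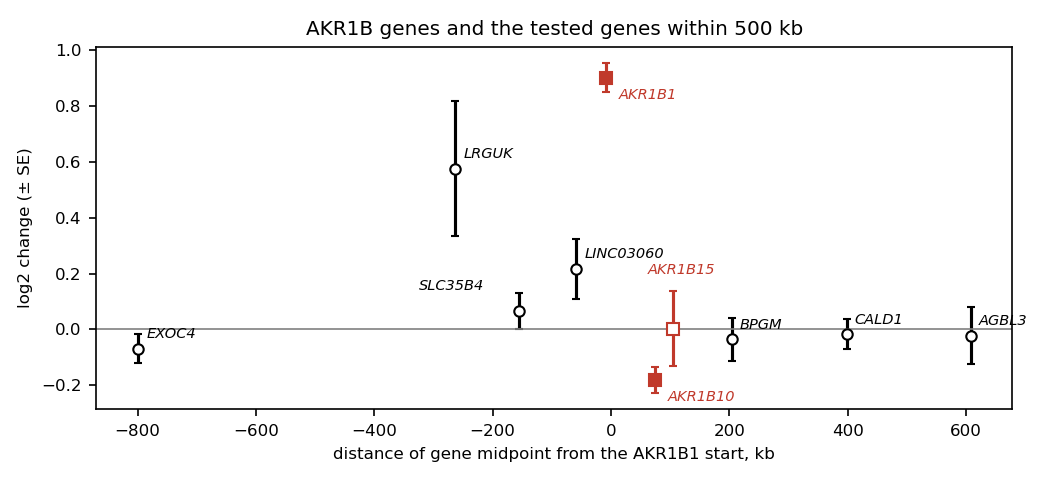
Log2 change (vertical axis, ± SE) of AKR1B1, AKR1B10 and AKR1B15 (red squares) and of the 7 tested genes within 500 kb (circles) by distance of the gene midpoint from the AKR1B1 start in kilobases; filled symbols were called. AKR1B1 at 0.90 and AKR1B10 at -0.18 are the called genes, and the 7 neighbours are all open.

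The wider pathway was read from 6 lists of 78 genes, of which 59 were tested, 0 were called higher and 3 lower (5.08% of those tested, beside 8.02% of all tested genes). At an unadjusted p under 0.05, 6 were higher and 9 lower, and the median log2 change was -0.02. The share of all tested genes at that unadjusted cut is not given here. Nothing is therefore read from such counts, for these lists or for the neighbours of the AKR1B genes. The 3 called genes were all aldehyde dehydrogenases of the list on reactive carbonyls.

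Reactive carbonyls such as methylglyoxal and lipid aldehydes are substrates that aldose reductase shares with aldehyde dehydrogenases and the glyoxalase system. Of 18 genes in this list 14 were tested, with 0 called higher and 3 lower, or 21.4%, and a median log2 change of -0.08. ALDH1A1, which oxidises retinal and other aldehydes, fell from 1238 ± 23.3 to 1023 ± 11.3 CPM (SD, n = 3 each). Its log2 change was -0.28 (SE 0.0423, edgeR adjusted p = 0.000978), and it was called under all 15 settings. Its groups did not overlap, as was so for 27.8% of all tested genes. ALDH3A2, the fatty aldehyde dehydrogenase, fell from 205.4 ± 1.99 to 181.0 ± 7.02 CPM (log2 change -0.18; edgeR adjusted p = 0.0342) and kept its call under 8 of 15 settings, with an adjusted p of 0.0168 to 0.246. ALDH7A1, an aldehyde dehydrogenase of lysine breakdown, fell from 41.2 ± 1.63 to 35.3 ± 0.516 CPM (log2 change -0.22; edgeR adjusted p = 0.0427) and kept it under 6 of 15, with an adjusted p of 0.0356 to 0.181. GLO1, glyoxalase 1, named after its values were seen, was not called at 365.0 ± 7.11 and 342.8 ± 15.2 CPM. The list held 1 called gene, a lower one, without control replicate 3, without any single HK1-overexpressing replicate or with a replicate block. Directions were mixed under other settings. Without control replicate 2 the list held 2 higher and 3 lower, and with library totals only 2 higher and 1 lower. No filter gave 1 higher and 1 lower, and a mean CPM of at least 5 gave 1 higher and 3 lower. The lower hepatocyte marker sum stands in the same libraries, and its part in these falls was not tested.

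Among 11 tested of 12 other aldo-keto reductases and potassium channel beta subunits of that fold, edgeR called 0, with 1 higher and 2 lower at an unadjusted p under 0.05, and DESeq2 and limma-voom called 0. The median log2 change was -0.12. AKR1C1, a steroid and aldehyde reductase and the most abundant of the list, was at 1613 ± 78.4 and 1686 ± 21.2 CPM (SD, n = 3 each; log2 change 0.06; edgeR adjusted p = 0.461). KCNAB2, named after its values were seen, was the gene nearest to a call, at 22.4 ± 0.819 and 26.4 ± 0.467 CPM (log2 change 0.24; edgeR adjusted p = 0.0508).

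Fructose transport and cleavage had 9 tested of 13 genes and 0 called by edgeR, DESeq2 or limma-voom, with 1 higher and 1 lower at an unadjusted p under 0.05 and a median log2 change of 0.02. TPI1, triose-phosphate isomerase, was at 331.6 ± 25.6 and 325.2 ± 3.61 CPM (SD, n = 3 each; log2 change -0.03; edgeR adjusted p = 0.824). The following genes were named after their values were seen. SLC2A2, which encodes the glucose and fructose transporter GLUT2, did not pass the filter. The aldolase genes ALDOA and ALDOC were at 43.1 ± 3.72 and 44.4 ± 1.18 CPM and at 35.5 ± 1.67 and 34.4 ± 2.27 CPM, and neither was called. Fragments shared with overlapping genes may be missing from such counts, so a low value is not evidence of low expression.

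The pentitol and glucuronate route, where AKR1A1 acts, had 8 tested of 9 genes and 0 called by edgeR, DESeq2 or limma-voom, with 1 higher and 1 lower at an unadjusted p under 0.05 and a median log2 change of -0.03. UGDH, which makes UDP-glucuronate, was at 249.9 ± 23.9 and 252.0 ± 4.61 CPM (SD, n = 3 each; log2 change 0.01; edgeR adjusted p = 0.935). Sorbitol is also an osmolyte, and AKR1B1 is a known target of the osmotic regulator NFAT5. Of 11 genes of osmolyte handling 9 were tested and 0 called by edgeR, DESeq2 or limma-voom, with 0 in either direction at an unadjusted p under 0.05 and a median log2 change of 0.03. SLC38A2, an amino acid transporter, was at 664.1 ± 82.2 and 722.7 ± 9.51 CPM (log2 change 0.12; edgeR adjusted p = 0.395). NFAT5 itself, named for its role after its values were seen, was at 66.7 ± 17.5 and 78.1 ± 2.26 CPM (log2 change 0.23, SE 0.207; edgeR adjusted p = 0.607), with wide spread in controls.

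Retinal is the substrate for which AKR1B10 is best known. Of 15 genes of retinal and retinoid handling 8 were tested and 0 called by edgeR, DESeq2 or limma-voom, with 1 higher and 1 lower at an unadjusted p under 0.05 and a median log2 change of 0.04. RBP4, the plasma retinol carrier made in liver, was at 541.1 ± 33.9 and 485.0 ± 10.3 CPM (SD, n = 3 each; log2 change -0.16; edgeR adjusted p = 0.0797), and it was called only without control replicate 1 among the 15 settings.

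**Figure D5:**
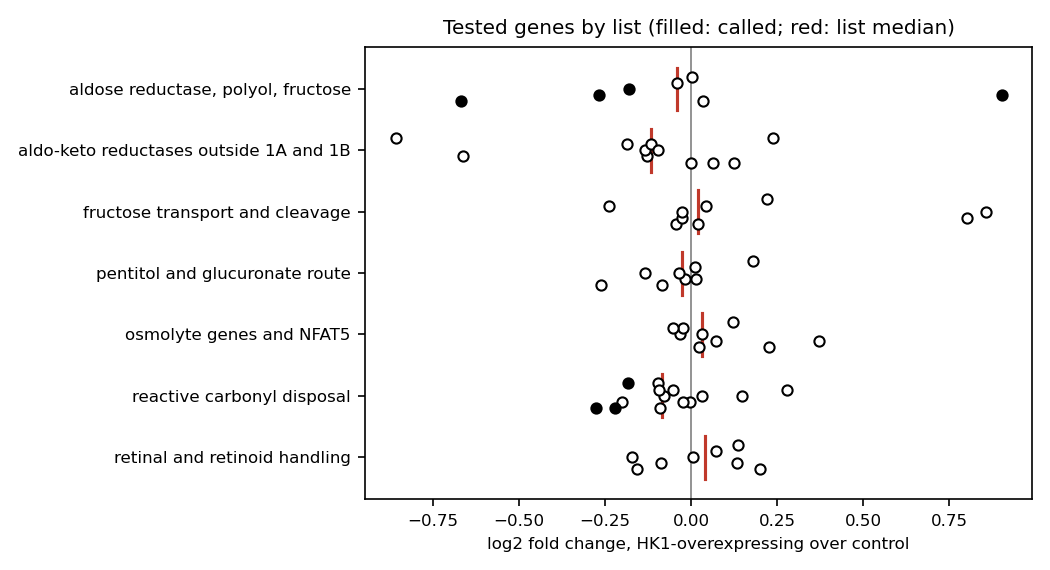
Log2 change (horizontal axis) of each tested member of the polyol and fructose genes and of the 6 wider lists (rows), with the list median as a red line; filled points were called. Outside the leading row the only filled points are ALDH1A1, ALDH3A2 and ALDH7A1 in the row on reactive carbonyls.

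The genes whose level most resembled AKR1B1 over the 6 libraries were found by Pearson's r of log2 CPM among 9440 tested genes with a mean of at least 10 CPM. The 6 libraries fall into 2 groups and share their scaling, so a high r mostly reflects the step between groups, and 195 genes had r above 0.95 with AKR1B1. Among the 5 highest were C19orf12 (r = 0.999), IGFL2-AS1 (0.997), APOL1 (0.996) and WASHC2A (0.995). The log2 changes of these were 0.19, 1.16, 0.89 and 0.24, and all of them but C19orf12 were called. IGFL2-AS1, at 7.50 CPM in control and 16.7 CPM in HK1-overexpressing cells, and APOL1, at 7.47 and 13.8 CPM, reached the mean of 10 CPM over all 6 libraries only through the group in which they were higher. IGFL2-AS1 is an antisense gene, and the counting did not use strand. For KHK, 71 genes had r above 0.95, and the 5 highest were NGEF (0.993), LSM14B (0.992), PARD3 (0.991), PIK3C2B (0.985) and SLFN13 (0.980). Their log2 changes were -0.40, -0.08, -0.18, -0.12 and -0.31, and LSM14B and PIK3C2B were not called.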

How the data were processed

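RNA was extracted with TRIZOL and made into stranded mRNA libraries, per the labels' protocols. The deposited values are whole-number counts per gene, not expected or estimated counts, in all 6 columns. Per the file headers, featureCounts 1.5.3 counted paired reads over exons grouped by gene name in GENCODE 47, with no strand option and no option for fragments that map to several places or genes. The build hg38, Trim Galore and Subread are named, per the submitters' processing notes.

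From the deposited counts, edgeR 4.0.16 in R 4.3.3 gave TMM factors, CPM and RPKM, the filterByExpr filter and a robust quasi-likelihood test in which group was the sole factor. Benjamini-Hochberg adjustment ran over all 16734 genes at 0.05. Log2 changes are HK1-overexpressing over control. Each standard error is the absolute unshrunken coefficient over the square root of F, and intervals are at 95%. Coding sequences were aligned globally with Biopython 1.88. The limit of 3 counts covers counting error only, because PCR copies are not separate molecules.

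The members and lists were chosen with earlier results of these data known. Named genes were all members and HK1, every called gene of a list or else its most abundant gene, called genes and the 2 nearest tested genes on each side of the AKR1B cluster, and the 5 genes most like AKR1B1 and KHK. Others are said to be outside this rule, and some genes are not reported here. Alternatives were RLE size factors, library totals, HK1 removed, no filter, a minimum mean of 5 CPM, limma-voom 3.58.1, DESeq2 1.42.0, no robust dispersion, a replicate block, and leaving out each library.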

Additional observations from a re-analysis of the deposited data

How the results depend on the processing

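Counts of calls moved mainly with single libraries, their split into higher and lower also moved with the scaling, and the causes were not tested. Leaving out each replicate in turn gave 536 to 2257 called genes over the whole table, against 1342, with 2257 when control replicate 1 was left out, 809 for control replicate 3, and 554, 536 and 598 for HK1-overexpressing replicates 1, 2 and 3. It gave 2 to 4 called among the polyol and fructose genes, 0 to 2 among other aldo-keto reductases, 0 to 2 in fructose transport and cleavage, 0 to 1 in the pentitol and glucuronate route, 1 to 5 in reactive carbonyl disposal and 0 to 2 in retinoid handling. AKR1B1 and KHK were called in every such run. The 2 called polyol and fructose genes came when control replicate 3 or HK1-overexpressing replicate 1 or 2 was left out. With library totals only, 907 genes over the whole table were called higher and 462 lower, against 648 higher and 694 lower as reported. Under this setting 2 polyol and fructose genes were called, AKR1B10 at -0.141 and TKFC at -0.229 no longer among them. ALDH3A2 at -0.143 and ALDH7A1 at -0.183 also lost their calls. Library totals only, no filter, and a mean CPM of at least 5 each gave 1 called gene among other aldo-keto reductases and 1 in the pentitol and glucuronate route. Osmolyte genes and the neighbours of the AKR1B genes had 0 called under all 15 settings.

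Deviations of same-numbered replicates had correlations of 0.00707, 0.0579 and -0.0304 across genes, and those of differently numbered replicates ran from -0.0515 to 0.0496. No pairing by number was seen. With 3 libraries per group these values cannot show whether same-numbered libraries were handled together. With a replicate block 1074 genes were called, 3 of them polyol and fructose genes, without AKR1B10, and 1 gene of reactive carbonyl disposal.

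Signs turned only for small changes that were not called. Over single replicates left out, AKR1B15 ran from -0.127 to 0.129, and it was at -0.0258 and -0.0538 when HK1-overexpressing replicates 2 and 3 were left out. AKR1A1 ran from -0.117 to 0.0224, its highest value coming without control replicate 2. TPI1 was at 0.0117 with library totals only and ran from -0.0795 to 0.0323 over the replicates left out, and UGDH from -0.0581 to 0.0768. BPGM was at 0.00346 with library totals only and ran from -0.0905 to 0.0125. CALD1 was at 0.0227 with library totals only and ran from -0.0726 to 0.0204. Depth limits SLC2A5, which is under 3 counts in every library, and AKR1B15 and KHK, which rest on 100 to 195 counts per library.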
